A study of Homo sapiens with 6 samples.

Results

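The 9 genes described here carry glutamine and cystine into cells, build glutathione from the cysteine obtained, and set how readily membrane lipids are destroyed by peroxidation. They were chosen by name (*SLC7A11*, *SLC3A2*, *SLC7A5*, *SLC1A5*, *GCLC*, *GCLM*, *GPX4*, *AIFM2* and *ACSL4*), by their function and with earlier results of these data known, from 60651 genes in each table. All 9 were found under a single identifier, and all 9 passed the filter on low counts. They were followed by total RNA sequencing in 6 human neuroblastoma cultures of a single cell line, of which 3 are titled EtOH (ethanol) and 3 are titled Tet (tetracycline, given for 5 days per the labels). The question that the design implies is whether these genes differ between cultures with and without tetracycline, the agent that switches the *MYCN* system carried by the cells. *MYCN* encodes a transcription factor whose amplification marks aggressive neuroblastoma.

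The labels disagreed on what that system is. The titles name IMR-5/75, a *MYCN*-amplified line, and a tag classes the samples by knockdown, whereas the protocol text describes SK-N-SH cells, grown as single clones under G418 and blasticidin, in which tetracycline induces *MYCN*. The study's methods describe an expression model in SK-N-AS cells and a *MYCN* shRNA model in IMR-5/75 cells, both switched by tetracycline. The libraries are therefore named by their titles. The methods describe cell culture work as independent biological replicates unless noted, whereas the labels do not say so for these cultures, and p-values measure the spread between these libraries. The RNA of *MYCN* did not settle what the labels mean. In order of replicate, it stood at 158, 256 and 156 CPM (counts scaled to equal library size, here after TMM normalisation) in the EtOH libraries and at 197, 200 and 145 CPM in the Tet libraries. By edgeR its log2 fold change was -0.07 with an SE of 0.23 (adjusted p = 0.956). These files hold no measure of MYCN protein. The study's methods report western blots of MYCN for both models, for its induction in SK-N-AS cells and its knockdown in IMR-5/75 cells. Because the labels disagree on the model, differences are given here as differences between the labels.

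Cells take up cystine, the oxidised dimer of cysteine, through system xc-, an exchanger made of the light chain SLC7A11 and the heavy chain SLC3A2, which gives up glutamate in return. Cysteine is the limiting building block of glutathione, which GPX4 uses to reduce lipid peroxides in membranes, and loss of this defence leads to ferroptosis, an iron-dependent form of cell death. ACSL4 loads membranes with the polyunsaturated fatty acids that are peroxidised, and AIFM2 (also called FSP1) protects them in a second way, by regenerating reduced coenzyme Q. Neuroblastoma cells with amplified *MYCN* are known for a high demand for glutamine and cysteine.

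The libraries held 27933378 to 40498065 counts, and 3 counts corresponded to 0.074 to 0.107 CPM. Genes of the mitochondrial genome took 4.12% to 10.01% of counts. Among noradrenergic neuroblastoma markers, the transcription factor gene *GATA3* was at 229 to 263 CPM in the EtOH libraries and 299 to 334 CPM in the Tet libraries and *HAND2* at 60.1 to 137 CPM and 84.4 to 129 CPM, but the defining enzyme genes *TH* and *DBH* were at or near 0. The mesenchymal markers summed to 292 to 514 CPM and 257 to 365 CPM. Endothelial markers stayed at or below 0.112 CPM in total and fibroblast markers at or below 8.06 CPM, with *VWF*, *COL1A2* and the T-cell marker *CD3E* at 0 in every library. The 4 epithelial markers were low, at 0.760 to 1.08 CPM in the EtOH libraries and 2.17 to 2.66 CPM in the Tet libraries, and *KRT19* was at 0. The labels' neuroblastoma origin was thus matched by *HAND2* and *GATA3* but not by *TH* and *DBH*, and none of the markers tested was past an adjusted p of 0.05 (edgeR).

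None of the 9 genes was past an adjusted p of 0.05 between the labels (edgeR), in a comparison that called 53 of 22443 genes (0.236%; 33 higher and 20 lower in the Tet libraries, 0.147% and 0.0891%). At an unadjusted p under 0.05, 1 of the 9 was higher (*SLC7A11*) and 1 was lower (*ACSL4*), where 10.8% of all genes tested fell under that value, 5.83% higher and 4.94% lower. The groups did not overlap for *ACSL4* alone, against 17.5% of all genes tested (8.28% with every Tet library below every EtOH library and 9.2% with every one above). The log2 fold change was above 0 for 6 of the 9, and the median of the 9 was 0.80, beside 49.3% of genes and a median of -0.01 over all genes tested. That median is the value of *SLC1A5*. Without Tet replicate 3, *SLC1A5* turned to -0.26 and *GPX4*, another of the 6, to -0.48. In RNA from whole cultures, fewer cells with a transcript and less of it per cell cannot be told apart. None of the 9 was called by DESeq2, which called 1.29% of genes higher and 0.932% lower, or by limma-voom, which called 0.165% and 0.0936%. *GCLM* was called higher without EtOH replicate 2, and with a replicate block that called 1.88% of genes higher and 1.13% lower. The labels do not say that libraries of equal number were paired. *SLC7A11* and *GCLM* were called higher without both libraries numbered 2, a choice made after the values had been seen.

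**Figure D1:**
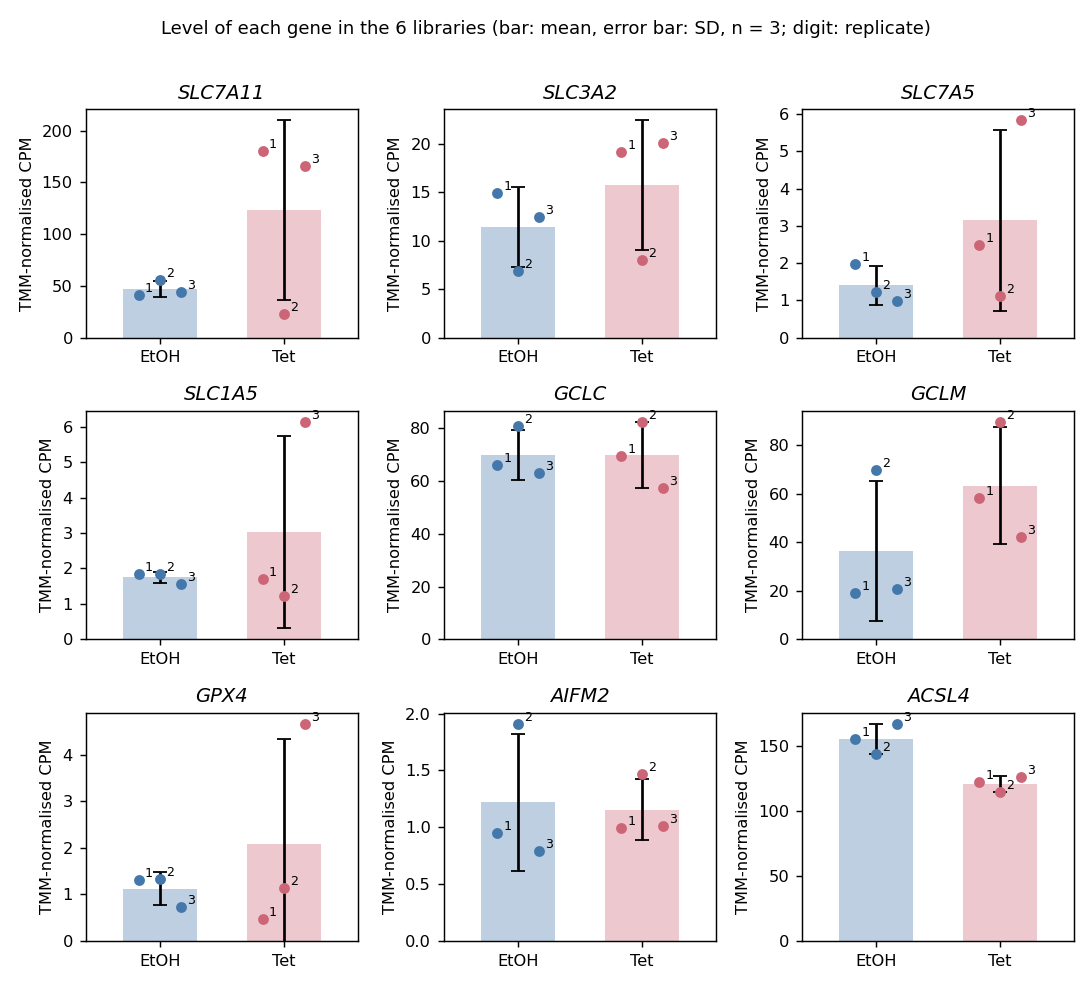
Level of each of the 9 genes in TMM-normalised CPM (vertical axes, starting at 0, with a scale of their own in each panel) in the EtOH and Tet libraries. Bars are means, error bars the SD of 3 libraries (cut at 0 for *GPX4*), and the digit beside each point is the replicate; *SLC7A11* stood at 180.5 and 165.8 CPM in Tet replicates 1 and 3 and at 22.8 CPM in Tet replicate 2, and *ACSL4* is the gene whose groups do not overlap.

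The sequence windows below come from the RefSeq promoter table (GRCh38.p14, 250 bases before to 50 after each annotated start). They are shown because the listed elements are the known binding letters of the factors that are known to act on these genes: CACGTG, the E-box bound by MYC proteins, TGACNNNGC, the core of the antioxidant response element bound by NRF2, and TGATGNAA, the C/EBP-ATF element bound by ATF4. Each is printed 5′ to 3′ along the gene's own strand, with the match in capitals, and both strands were searched.
SLC7A5, E-box, chr16:87869622-87869647, minus strand: ccggacgacgCACGTGctccgagctg
SLC1A5, E-box, chr19:46787328-46787353, minus strand: cgggagtggtCACGTGgacaggacgg
GCLM, antioxidant response element, chr1:93909446-93909474, minus strand: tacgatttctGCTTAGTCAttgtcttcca
AIFM2, antioxidant response element, chr10:70132829-70132857, minus strand: cagcacgagtGCTGAGTCAcgccccgccc
SLC3A2, antioxidant response element, chr11:62881652-62881680, plus strand: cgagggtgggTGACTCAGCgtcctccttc
SLC3A2, C/EBP-ATF element, chr11:62881726-62881748, plus strand: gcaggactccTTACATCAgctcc
SLC1A5, C/EBP-ATF element, chr19:46784894-46784921, minus strand: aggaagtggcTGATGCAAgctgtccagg

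Windows were at hand for 8 of the 9 genes, 14 windows in all, and *SLC7A11* had no entry. The E-box letters were found in 2 of the 14 windows, those of 2 genes, and in 7.26% of 35116 windows of all genes. The antioxidant response core was found in 5 of the 14 windows, those of 5 genes (*AIFM2*, *GCLM*, *SLC1A5*, *SLC3A2* and *SLC7A5*), and in 13.3% of all windows. The C/EBP-ATF letters were found in 2 of the 14 windows and in 3.62% of all windows. The matches describe letters in these windows and no measurement of binding.

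*SLC7A11*, the light chain that gives system xc- its specificity for cystine, showed the largest log2 fold change of the 9 together with a wide disagreement among the Tet libraries. The gene (ENSG00000151012.13) spans bases 138164097 to 138242349 of chromosome 4 on the minus strand (GRCh38, as for all coordinates). It stood at 40.9, 55.8 and 44.1 CPM in the EtOH libraries and at 180.5, 22.8 and 165.8 CPM in the Tet libraries, here and below in the order of replicates 1, 2 and 3. Tet replicates 1 and 3 thus lay above every EtOH library and Tet replicate 2 below every one, so that the groups overlapped. Group means were 46.9 ± 7.87 and 123.1 ± 87.1 CPM (SD, n = 3 each), and the difference on the log2 scale was 1.39 (SE 0.60, 95% interval 0.01 to 2.77; edgeR, unadjusted p = 0.0483, adjusted p = 0.460). Without Tet replicate 2 it was 1.88 (edgeR, adjusted p = 0.0572). Leaving out EtOH replicate 2 as well, a choice made after the values had been seen, gave 2.03 (edgeR, adjusted p = 0.000884), from 2 libraries per label. That fit called 487 genes higher and 387 lower in all (2.1% and 1.67% of those tested), against 33 and 20 with 6 libraries, and the low Tet library is among those it leaves out, so its value describes the remaining 4 libraries only.

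The antisense gene *SLC7A11-AS1* followed the same course. It stood at 10.9, 11.5 and 12.9 CPM in the EtOH libraries and at 42.6, 4.74 and 47.0 CPM in the Tet libraries, and of 10088 genes with a mean of at least 5 CPM it was the nearest to *SLC7A11* across the 6 libraries, with a root mean square difference of 0.20 between their log2 levels, each centred on its own mean. It covers 8.97% of the exon bases of *SLC7A11*, and reads were counted without regard to strand. Over those shared bases, reads of the gene and of its antisense partner cannot be told apart. The next nearest were *ASNSP1* (0.55), a pseudogene of asparagine synthetase, *PHGDH* (0.62), the first enzyme of serine synthesis, *VEGFA* (0.65), a vascular growth factor, and ENSG00000273906 (0.68). *PHGDH* stood at 7.62, 4.94 and 6.71 CPM in the EtOH libraries and at 8.76, 2.28 and 15.9 CPM in the Tet libraries, again with Tet replicate 2 lowest.

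*SLC3A2* (CD98), the heavy chain that brings SLC7A11 and SLC7A5 to the cell surface, differed less between the labels. The gene (ENSG00000168003.18) spans bases 62856004 to 62888880 of chromosome 11 on the plus strand, with none of its exon bases inside another gene. It was at 14.9, 6.85 and 12.5 CPM in the EtOH libraries and at 19.2, 8.07 and 20.1 CPM in the Tet libraries. In both labels replicate 2 was the lowest, and the groups overlapped. Its log2 fold change was 0.46 (SE 0.39, 95% interval -0.43 to 1.36; edgeR, adjusted p = 0.758), and it was 0.21 without EtOH replicate 2 and 0.78 without Tet replicate 2.

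Because the 2 chains form a single exchanger, their levels were also set against each other per length, in TPM (counts divided by exon length, then scaled to the same sum in every library). There were 1.81, 5.40 and 2.34 *SLC7A11* TPM for each *SLC3A2* TPM in the EtOH libraries and 6.24, 1.87 and 5.47 in the Tet libraries. The ratio was high in Tet replicates 1 and 3 and also in EtOH replicate 2, where it came with the lowest *SLC3A2* level of the 6 libraries, and the groups overlapped.

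*SLC7A5* (LAT1), which takes up leucine and other large neutral amino acids in exchange for glutamine, spans bases 87830023 to 87869507 of chromosome 16 on the minus strand (ENSG00000103257.9), and its E-box window is printed above. It was at 1.98, 1.23 and 0.992 CPM in the EtOH libraries and at 2.48, 1.13 and 5.84 CPM in the Tet libraries, from 30 to 232 counts. Tet replicate 3 was the highest of the 6 and Tet replicate 2 the second lowest. The log2 fold change was 1.17 (SE 0.58, 95% interval -0.15 to 2.48; edgeR, adjusted p = 0.528), and without Tet replicate 3 it was 0.36 (edgeR, adjusted p = 0.882).

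*SLC1A5* (ASCT2), the main importer of glutamine in many tumour cells, was likewise highest in Tet replicate 3. The gene (ENSG00000105281.12) spans bases 46774883 to 46788594 of chromosome 19 on the minus strand, and some of its reads were divided with overlapping genes. It was at 1.84, 1.84 and 1.55 CPM in the EtOH libraries and at 1.70, 1.21 and 6.14 CPM in the Tet libraries. Tet replicate 3 alone lay above the EtOH libraries, and Tet replicate 2 lay below them. Its log2 fold change was 0.80 (SE 0.57, 95% interval -0.51 to 2.10; edgeR, adjusted p = 0.700) and turned to -0.26 without Tet replicate 3.

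The 2 subunits of glutamate-cysteine ligase, the rate-limiting enzyme of glutathione synthesis, differed in how much they varied over the libraries. *GCLC*, the catalytic subunit (ENSG00000001084.13, minus strand of chromosome 6, 53497341 to 53616970), was at 66.2, 80.8 and 63.0 CPM in the EtOH libraries and at 69.7, 82.4 and 57.3 CPM in the Tet libraries. Its means were 70.0 ± 9.50 and 69.8 ± 12.6 CPM (SD, n = 3 each). By edgeR the log2 fold change came to -0.0036 with an SE of 0.18 (adjusted p = 0.998), and the 95% interval of -0.42 to 0.41 corresponds to between 0.747 and 1.33 times the EtOH level.

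*GCLM*, the modifier subunit that raises the activity of the ligase, is a known target of NRF2, the transcription factor of the antioxidant response. The gene (ENSG00000023909.10) spans bases 93885199 to 93909456 of chromosome 1 on the minus strand, shares no exon bases with another gene, and has the antioxidant response core printed above close to its start. It was at 19.0, 69.6 and 20.6 CPM in the EtOH libraries and at 58.1, 89.5 and 42.2 CPM in the Tet libraries. EtOH replicate 2 stood at more than 3 times the level of the other EtOH libraries and inside the range of the Tet libraries. The log2 fold change was 0.80 (SE 0.50, 95% interval -0.35 to 1.94; edgeR, adjusted p = 0.643). Without EtOH replicate 2, in a fit that called 1.51% of genes higher and 1.38% lower, it was 1.68 (edgeR, adjusted p = 0.0195). Without both libraries numbered 2 it was 1.34 (edgeR, adjusted p = 0.00918), from 2 libraries per label. That choice was made after the values had been seen, and the fit called 2.1% of genes higher and 1.67% lower. Both fits leave out the EtOH library with the high *GCLM* level, so their values describe the remaining libraries only.

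EtOH replicate 2 stood apart in other genes as well. The mesenchymal transcription factor gene *PRRX1* was at 136 CPM there and at 59.5 and 62.5 CPM in EtOH replicates 1 and 3. *YAP1*, the effector of Hippo signalling, was at 44.7 CPM against 15.3 and 16.3 CPM. The other mesenchymal markers did not all follow. In the EtOH libraries *VIM* was at 176, 265 and 161 CPM and *FN1* at 52.0, 62.5 and 46.4 CPM. *CD44* went the other way, at 6.58, 5.12 and 5.82 CPM, and *FOSL1* was at or near 0. The share of counts from the mitochondrial genome was lowest in that library. Tet replicate 2 leaned the same way among the Tet libraries. In order of replicate, *PRRX1* was at 33.6, 55.5 and 38.5 CPM in these. *YAP1* (24.1 CPM), *VIM*, *FN1* and *GCLM* (89.5 CPM) were also highest in Tet replicate 2, and its mitochondrial share was the lowest Tet value (5.86%). *CD44* differed, being highest in Tet replicate 2 but lowest in EtOH replicate 2. Whether the *GCLM* level in the libraries numbered 2 is tied to these differences was not tested.

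The 2 subunits were also set against each other per length. There were 2.19, 0.730 and 1.93 *GCLC* TPM for each *GCLM* TPM in the EtOH libraries and 0.756, 0.580 and 0.854 in the Tet libraries. EtOH replicates 1 and 3 held more of the catalytic transcript, the other 4 libraries more of the modifier transcript, and the groups overlapped.

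**Figure D2:**
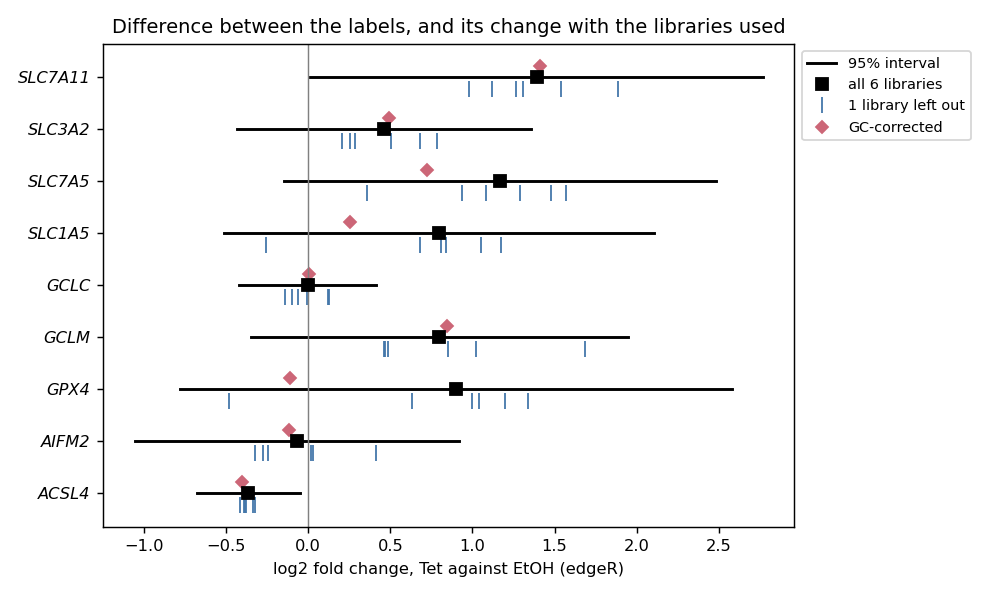
Log2 fold change of each gene, Tet against EtOH, by edgeR (horizontal axis): black squares with lines are the values from 6 libraries with their 95% intervals, blue ticks the values with 1 library left out, and red diamonds the values after a correction for GC content. *ACSL4* stayed between -0.41 and -0.32 over the blue ticks, whereas *GPX4* and *SLC1A5* crossed 0 when Tet replicate 3 was left out. The blue ticks of *GCLC* (-0.14 to 0.12) and *AIFM2* (-0.32 to 0.41) also lay on both sides of 0.

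*GPX4*, the selenoenzyme that reduces lipid peroxides and whose loss sets off ferroptosis, had few reads. The gene (ENSG00000167468.18) spans bases 1103926 to 1106791 of chromosome 19 on the plus strand. Its counts were 47, 37 and 22 in the EtOH libraries and 13, 40 and 185 in the Tet libraries. In CPM these were 1.31, 1.33 and 0.727 against 0.461, 1.13 and 4.66, so that the lowest and the highest library both carried the label Tet. Its log2 fold change was 0.90 (SE 0.74, 95% interval -0.78 to 2.58; edgeR, adjusted p = 0.744). It turned to -0.48 without Tet replicate 3 and to -0.11 after correction for GC content.

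*AIFM2* (FSP1), the coenzyme Q reductase that protects membranes independently of glutathione, was the least abundant of the 9 and did not differ beyond the spread of the libraries. The gene (ENSG00000042286.15) spans bases 70098223 to 70132934 of chromosome 10 on the minus strand, and *MACROH2A2* covers 19.2% of its exon length. It was at 0.949, 1.91 and 0.793 CPM in the EtOH libraries and at 0.993, 1.47 and 1.01 CPM in the Tet libraries, from 24 to 53 counts. Replicate 2 was the highest of each label. The log2 fold change was -0.07 (SE 0.43, 95% interval -1.06 to 0.92; edgeR, adjusted p = 0.981) and took either sign as single libraries were left out.

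*ACSL4*, the ligase that attaches coenzyme A to arachidonic and adrenic acid and thereby promotes their entry into membranes, was lower in every Tet library. The gene (ENSG00000068366.20) spans bases 109624244 to 109733403 of chromosome X on the minus strand. It was at 155, 144 and 167 CPM in the EtOH libraries and at 122, 114 and 126 CPM in the Tet libraries. Group means were 155 ± 11.8 and 121 ± 5.86 CPM (SD, n = 3 each), 0.777 times the EtOH level. Its log2 fold change was -0.36 (SE 0.14, 95% interval -0.68 to -0.05; edgeR, unadjusted p = 0.0277, adjusted p = 0.387). It ranked 1607 of 22443 genes by p-value, and it was not called.

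Ordered by mean TPM over the 6 libraries, *ACSL4* was the most abundant of the 9 transcripts per length (57.5 TPM), from 46.8 to 69.5 TPM over the libraries. In Tet replicate 1, however, *SLC7A11* (52.8 TPM) lay just above *ACSL4* (52.6 TPM). *GCLM* (25.3 TPM), *SLC7A11* (23.7 TPM) and *GCLC* (22.2 TPM) followed and could not be ordered among themselves, since *GCLM* ranged from 9.46 to 44.9 TPM and *SLC7A11* from 6.43 to 52.8 TPM. *SLC3A2* came next (5.72 TPM), below *GCLC* in every library. Under it lay *GPX4* (2.08 TPM), *SLC1A5* (1.89 TPM), *SLC7A5* (1.26 TPM) and *AIFM2* (0.637 TPM), and from *SLC3A2* down each gene's range over the libraries overlapped that of the next.

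The 4 most abundant transcripts were also the 4 with the least GC in their exons. These held 35.4% (*SLC7A11*), 37.9% (*ACSL4*), 38.6% (*GCLM*) and 44.4% (*GCLC*) G and C, against 52.8% for *SLC3A2*, 53.0% for *AIFM2*, 61.1% for *SLC7A5*, 61.2% for *SLC1A5* and 68.3% for *GPX4*. Over 12830 protein-coding genes tested, the median TPM likewise went from 33.3 where exons held under 40% GC to 0.594 where they held 65% or more. *GPX4* lay at the 31.1st percentile of all these genes but at the 85.7th percentile of the 84 genes within 2 percentage points of its own GC content. *SLC1A5* lay at the 29.6th and the 80.2nd percentile in the same sense, and *SLC7A5* at the 23.9th and the 72.9th. *SLC7A11* went the other way, from the 71.5th to the 34.3rd percentile, and *AIFM2* stayed low in both, at the 13.8th and the 14.1st. The order of the 9 levels is therefore a description of these libraries, and how far GC content set it was not tested.

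**Figure D3:**
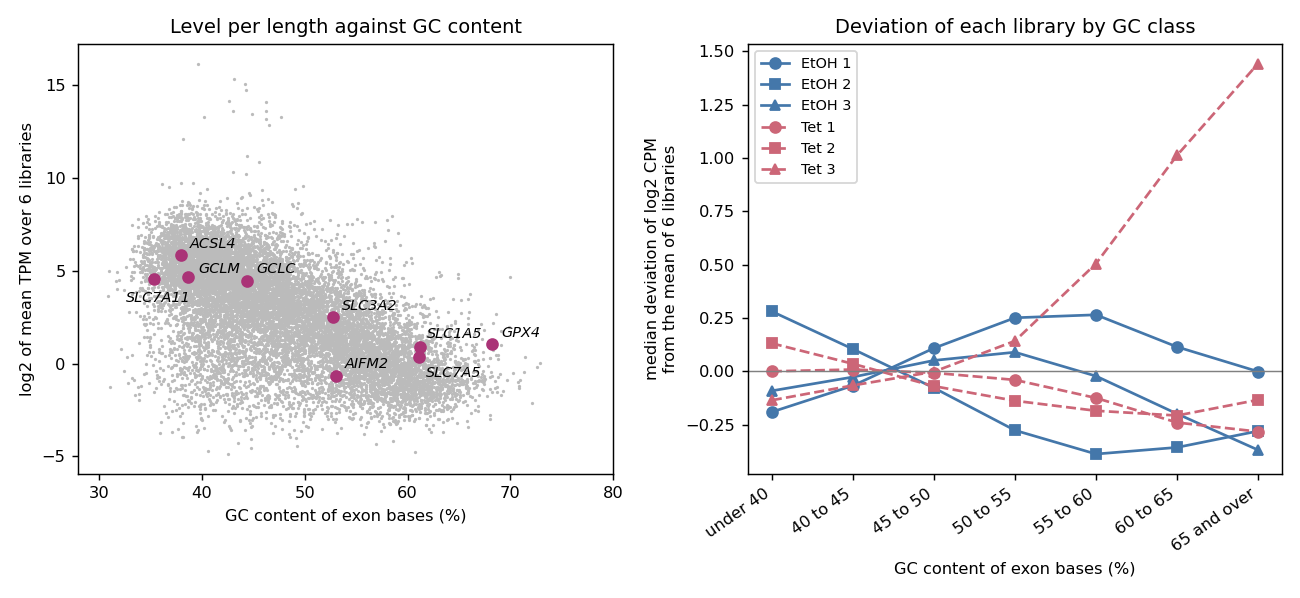
Left, log2 of the mean TPM over 6 libraries against the GC content of exon bases in percent, for 12830 protein-coding genes (grey) and the 9 genes (purple). Right, median deviation of log2 CPM from the mean of the 6 libraries, for genes grouped by GC content: Tet replicate 3 climbs from -0.14 under 40% GC to 1.44 at 65% or more, and the highest value of any other library is 0.28.

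Tet replicate 3, which gave the high values of *GPX4*, *SLC1A5* and *SLC7A5*, was high in GC-rich genes as a class. The median deviation from the 6-library mean in that library was 1.44 on the log2 scale over the 171 coding genes with at least 65% GC, where the other 5 libraries lay between -0.37 and -0.0009. *GPX4* deviated by 1.88 in Tet replicate 3, and the genes within 2 points of its GC content by a median of 1.46. *SLC1A5* deviated by 1.58 and *SLC7A5* by 1.62, beside medians of 0.92 and 0.91 for genes of like GC content. The median log2 fold change of that GC class was 0.83. When a smooth trend of each library against GC content was taken out, a choice made after the data had been seen, the log2 fold changes became -0.11 for *GPX4*, 0.25 for *SLC1A5* and 0.72 for *SLC7A5*. Those of *SLC7A11* (1.41), *GCLM* (0.84) and *ACSL4* (-0.40) were close to their values without the correction, and none of the 9 was called.

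Tet replicate 2, in which *SLC7A11* was low, was also the lowest Tet library for *SLC3A2*, *SLC7A5*, *SLC1A5* and *ACSL4*, 5 of the 9 genes, where 40.7% of all genes tested had their lowest Tet value there. The list of the ATF4 response, the programme by which cells short of amino acids raise transporters and biosynthetic enzymes, showed this library most plainly. All 11 tested genes of that list had their lowest Tet value in replicate 2. Their median deviation from the 6-library mean was 0.34, -0.41 and -0.10 in EtOH replicates 1, 2 and 3 and 0.56, -0.86 and 0.67 in Tet replicates 1, 2 and 3. *SLC7A11* deviated by -0.65, -0.20 and -0.54 and by 1.495, -1.49 and 1.37 in the same order, so it shared the low Tet replicate 2 with the list but not the order of the EtOH libraries. *ATF4* itself, which encodes the factor and is regulated mainly by translation, was at 41.6, 9.49 and 24.7 CPM in the EtOH libraries and at 23.7, 11.2 and 27.2 CPM in the Tet libraries (log2 fold change -0.29; edgeR, adjusted p = 0.903).

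**Figure D4:**
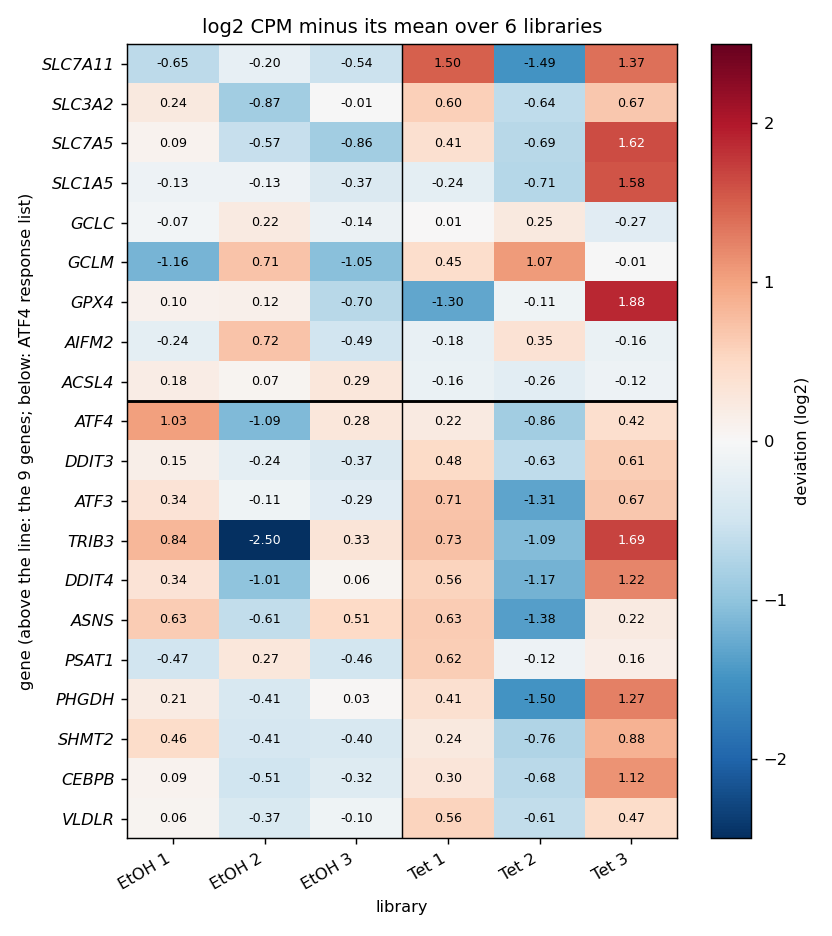
Deviation of log2 CPM from its mean over 6 libraries (colour and printed value) for the 9 genes, above the black line, and for the 11 tested genes of the ATF4 response list, below it; columns are libraries. Tet replicate 2 is the lowest Tet library for every gene of the list, and for *SLC7A11* it stands at -1.49 between 2 libraries at 1.495 and 1.37.

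Around the 9 genes, 150 genes in 11 lists were examined, of which 136 were tested. By edgeR, 1 was lower in the Tet libraries at an adjusted p under 0.05 and none was higher, beside 0.0891% and 0.147% of all genes tested. At an unadjusted p under 0.05 the numbers were 15 lower and 2 higher, beside 4.94% and 5.83% of all genes tested, and DESeq2 called 4 lower and 0 higher, beside 0.932% and 1.29%. The groups did not overlap for 27 of the 136, with Tet below EtOH in 23 and above in 4, beside 17.5%, 8.28% and 9.2% of all genes tested. The median log2 fold change over the 136 was -0.06. Medians below are over all tested genes of a list, and the largest and smallest values named are those among its genes with a mean of at least 5 CPM.

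The gene called was *SCD*, stearoyl-CoA desaturase, which makes the monounsaturated fatty acids that compete with polyunsaturated ones for places in membranes. It was at 513, 547 and 495 CPM in the EtOH libraries and at 266, 270 and 260 CPM in the Tet libraries, and the groups lay far apart. Its log2 fold change was -0.97 by edgeR (SE 0.13, adjusted p = 0.0389). The number of list genes called lower was 5 without EtOH replicate 2, 0 without any other single library and 0 under RLE size factors. The list of polyunsaturated lipid and peroxidation genes had a median of -0.08 over 14 tested genes, and the largest value among those with a mean of at least 5 CPM was that of *CYB5R1*, an oxidoreductase (0.27; edgeR, adjusted p = 0.731).

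Among the other amino acid transporters, 13 of 15 were tested and none was called, with a median log2 fold change of -0.17. *SLC1A3* (EAAT1), which takes up glutamate and so acts on the product that system xc- exports, was at 17.2, 19.2 and 19.9 CPM in the EtOH libraries and at 10.6, 6.21 and 9.61 CPM in the Tet libraries. Every Tet library lay below every EtOH library, at a log2 fold change of -1.09 by edgeR (SE 0.23, adjusted p = 0.122). *SLC1A4* (ASCT1), a neutral amino acid exchanger related to SLC1A5, had the largest value, 0.28 (edgeR, adjusted p = 0.784).

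The 10 enzymes of glutamine and glutamate metabolism were all tested and none was called, at a median of -0.22. *GLUD1*, glutamate dehydrogenase, had the smallest value (-0.42; edgeR, adjusted p = 0.365), and *PSAT1*, which uses glutamate in serine synthesis, the largest (0.43; edgeR, adjusted p = 0.627). Cysteine supply and transsulfuration gave a median of -0.29 over 9 of 11 genes with none called. Among its genes at 5 CPM or more, values ran from *AHCY*, which hydrolyses S-adenosylhomocysteine (-0.62; edgeR, adjusted p = 0.592), to *CHAC2*, which degrades glutathione (0.03; edgeR, adjusted p = 0.989).

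Of 13 genes of glutathione synthesis and use 10 were tested, with a median of -0.05 and none called. *MGST1*, a microsomal glutathione transferase with peroxidase activity, was at 36.2, 84.7 and 38.2 CPM in the EtOH libraries and at 17.4, 23.3 and 17.2 CPM in the Tet libraries. The groups did not overlap, and at -1.46 its log2 fold change was the smallest of all 136 (SE 0.34; edgeR, adjusted p = 0.145). *GLRX2*, a mitochondrial glutaredoxin, had the largest value among the more abundant genes of the list (0.17; edgeR, adjusted p = 0.910).

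The NRF2 regulators and targets, to which *GCLM* is functionally close, had a median of 0.15 over 11 of 13 genes, and none was called. *NQO1*, a classical NRF2 target, repeated the course of *GCLM* among the EtOH libraries, with 6.75, 19.1 and 7.27 CPM, and was at 18.1, 16.8 and 18.5 CPM in the Tet libraries. Its log2 fold change was 0.69 by edgeR (SE 0.38, adjusted p = 0.579), with the groups overlapping through EtOH replicate 2. The list as a whole did not share this course. EtOH replicate 2 was the lowest EtOH library for 6 of its 11 tested genes (54.5%), beside 45.8% of all genes tested. *MAFG*, a partner of NRF2 on DNA, had the smallest value among the genes at 5 CPM or more (-0.11; edgeR, adjusted p = 0.947). In the NADPH and thioredoxin list, whose median was -0.05 over 13 genes, none was called, and the extremes among genes at 5 CPM or more were *TXNIP*, an inhibitor of thioredoxin (0.45; edgeR, adjusted p = 0.791), and *PRDX1*, a peroxiredoxin (-0.46; edgeR, adjusted p = 0.546).

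GPX4 protein depends on selenocysteine, and 13 of 14 genes of selenoprotein synthesis were tested with a median of -0.19 and none called. *LRP8*, a receptor that takes up the selenium carrier selenoprotein P, was at 127, 232 and 131 CPM in the EtOH libraries and at 90.3, 116 and 101 CPM in the Tet libraries. The groups did not overlap, at a log2 fold change of -0.67 by edgeR (SE 0.25, adjusted p = 0.373). *SEPHS2*, which makes the selenium donor, had the largest value among the genes at 5 CPM or more, 0.33 (edgeR, adjusted p = 0.536), and its groups did not overlap either.

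The defences that work beside GPX4, coenzyme Q and tetrahydrobiopterin (BH4), were covered by 19 genes, all tested, with a median of -0.08 and none called. *GCH1*, the first enzyme of BH4 synthesis, was at 34.4, 26.3 and 35.9 CPM in the EtOH libraries and at 25.1, 16.6 and 25.5 CPM in the Tet libraries (log2 fold change -0.53; edgeR, adjusted p = 0.437), and *COQ7*, a hydroxylase of coenzyme Q synthesis, had the largest value (0.41; edgeR, adjusted p = 0.585). Iron handling gave a median of -0.01 over 17 genes with none called. Its extremes were *SLC40A1* (ferroportin), the iron exporter, at 0.64 (edgeR, adjusted p = 0.306), and *SLC39A14*, an importer of zinc and iron, at -0.66 (edgeR, adjusted p = 0.232), and in each of these the groups did not overlap. In the ATF4 response list the median was 0.39 over 11 of 13 genes and none was called, and among its genes at 5 CPM or more *DDIT4*, an inhibitor of mTOR signalling, had the largest value (0.60; edgeR, adjusted p = 0.791) and *ATF4* the smallest.

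**Figure D5:**
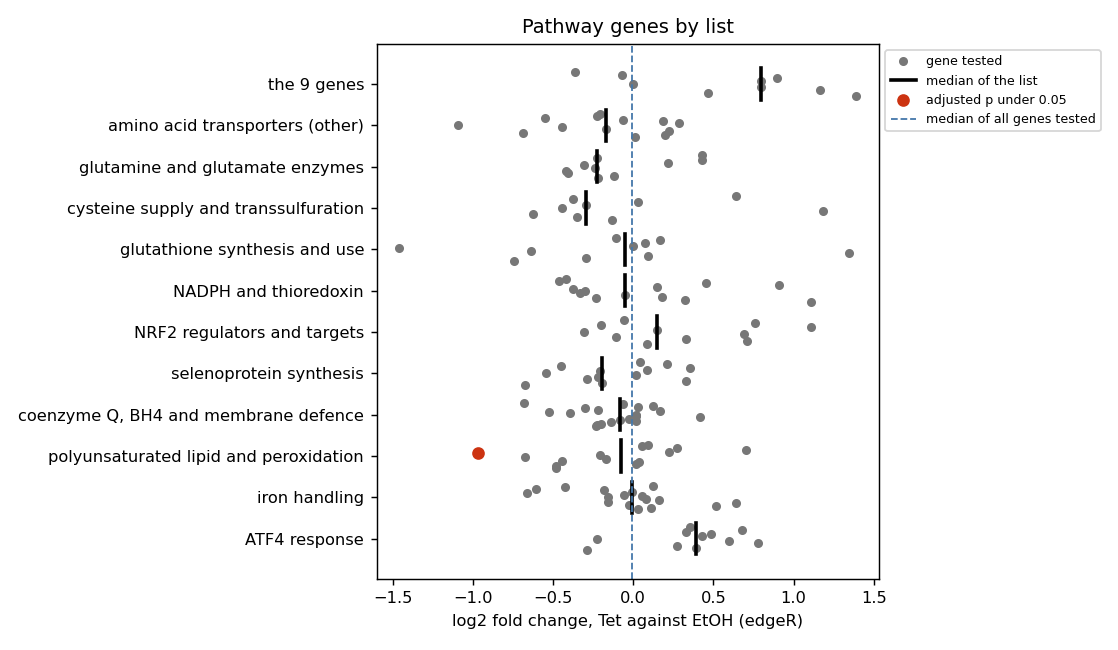
Log2 fold change, Tet against EtOH, of each tested gene by list (horizontal axis, edgeR; one grey point per gene, spread vertically only for legibility), with the median of the list (black) and of all genes tested (dashed). The 9 genes are in the top row with a median of 0.80, and the red point is *SCD* at -0.97, the gene with an adjusted p under 0.05. The median of 0.80 is the value of *SLC1A5*, which was -0.26 without Tet replicate 3.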

How the data were processed

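Total RNA was depleted of ribosomal RNA and sequenced as paired ends. The authors deposited 1 table of estimated counts per library, counted over exons on GRCh38. Per the file headers, unique STAR alignments were counted with featureCounts 1.6.4, read pairs overlapping several genes were divided among them, and strand was not used. The submitters' processing notes name STAR 2.7.1a and featureCounts 1.5.1, and the study's methods describe stranded counting, so the headers were followed. Fractional values made up 12.3% to 14.7% of genes, depending on the library, and were rounded. The largest count of 92 spike-in sequences was 0, and they were left out. Symbols were found for 99.7% of identifiers.

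Genes were filtered by filterByExpr, scaled by TMM and compared in edgeR 4.0.16 (R 4.3.3) with its quasi-likelihood test over 22443 genes without covariates, with Benjamini-Hochberg adjustment and a threshold of 0.05. The design was written for counts that might not be whole. SE is the size of the log2 fold change divided by the square root of F, and 95% intervals use the t distribution with the degrees of freedom of the fit. TPM came from counts and exon length, and centred log2 CPM used a prior count of 2. DESeq2 1.42.0, limma 3.58.1, other scalings and filters, a replicate block and leaving out libraries were alternatives. The edgeR step was tested on simulated data.

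The 9 genes and the lists were chosen with earlier results of these data known. Named besides the 9 were, in each list, any gene called and the largest and smallest log2 fold change among genes with a mean of at least 5 CPM, the 5 genes most like *SLC7A11* (*GPX4* was below 5 CPM, so none was sought), *MYCN* and markers. *PRRX1*, *YAP1* and the other mesenchymal markers were named after their values were seen. Some markers and overlapping genes are not reported here.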

Additional observations from a re-analysis of the deposited data

How the results depend on the processing

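Of 153 comparisons of a member's log2 fold change with an alternative, 137 kept direction and side of the threshold, 4 passed it, none lost a call and 12 reversed. With the replicate block, 1 of the 9 genes was higher (*GCLM*, 0.998; edgeR, adjusted p = 0.0325), 6 list genes were lower, and 421 and 254 genes of the table were higher and lower. The labels do not say that libraries of equal number were paired. Their deviations correlated at 0.060, 0.510 and 0.219 for replicates 1, 2 and 3, all above 0. Whether the numbers mark a shared origin was not tested. The block changed no other call among the 9. Without EtOH and Tet replicates 2 together (chosen after seeing the data, as both lay at one end of the first principal component and *SLC7A11* was low in one), 2 of the 9 were higher (*SLC7A11* 2.03, *GCLM* 1.34), *AIFM2* reversed to 0.20, 4 list genes were higher and 5 lower, and 487 and 387 genes of the table. Leaving out 1 library gave 0 to 1 of the 9 higher, 0 to 2 list genes higher and 0 to 5 lower, and 0 to 361 and 0 to 331 genes of the table, the highest each time without EtOH replicate 2. The log2 fold changes then ranged from -0.26 to 1.17 (*SLC1A5*), -0.14 to 0.12 (*GCLC*), 0.46 to 1.68 (*GCLM*), -0.48 to 1.34 (*GPX4*) and -0.32 to 0.41 (*AIFM2*). Over the table, 185 and 117 genes were called without a filter, 290 and 209 by DESeq2, 73 and 48 after GC correction (added after seeing the data), and 13 lower with RLE size factors. List genes called lower were 3 without a filter, 4 by DESeq2 and 0 with RLE. *GPX4* reversed after GC correction (-0.11), *GCLC* with upper-quartile scaling (0.0037) and GC correction (0.0055), and *AIFM2* by limma-voom (0.030). The cause was not tested. Depth limits *GPX4*, *SLC1A5*, *SLC7A5* and *AIFM2*, which rest on 13 to 244 counts per library.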
